A study of Mus musculus with 9 samples.

Results

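Genes of cholesterol synthesis and lipid handling were examined in resting mouse dendritic cells (DC), the cells that sense pathogens and present antigen to T cells. The set held 46 of the 39179 genes in the count table and was chosen by name: 18 enzymes of sterol synthesis, 5 genes of the SREBP factors and their control, 6 genes of the LXR receptors, their targets and sterol export, 4 genes of sterol storage, lysosomal exit and oxysterol production, 10 genes of fatty acid synthesis, elongation, desaturation and phospholipid remodelling, and 3 genes of lipid droplets, lipid uptake and PPAR gamma. The gene name column gave 45 of them, and Msmo1 was found by its Ensembl identifier (ENSMUSG00000031604) because the table lists it under an older name. Of the 46, 45 had enough counts for a test, and the oxysterol enzyme Ch25h did not. The members were chosen with earlier results of these data known.

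RNA came from 3 DC subsets of the spleen of unstimulated C57BL/6J mice aged 6 to 12 weeks, with 3 libraries per subset. The cDC1 and cDC2 are conventional DC, sorted as CD8-positive and CD8-negative CD11b-positive cells, and the pDC are plasmacytoid DC, which the study sorts by high CD317. No group carried a genetic change or a treatment. How many mice went into each library is not stated in the sources used here. Reads were 75 bases long from one end of stranded, polyadenylated RNA.

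Between 15806597 and 32453789 reads were counted on genes in each library, and a count of 3 corresponded to 0.0908 to 0.203 CPM (read counts scaled to a common library total), counting error alone considered. All levels below are CPM after TMM scaling, as mean ± SD with n = 3, and levels of different genes are set side by side only per kilobase of exon. Labels were checked against lists of 8 markers per subset. All 8 of the pDC list were higher in pDC than in each other subset, with Siglech at 4752 ± 394 CPM. Of the cDC1 list, 8 were lower in pDC and 7 lower in cDC2 than in cDC1, with Xcr1 at 936 ± 9.33 in cDC1, though 3 were higher in pDC than in cDC2. Of the cDC2 list, 7 were higher in cDC2 than in cDC1, but 4 were higher and 4 lower in pDC than in cDC2, and the list summed to 2908 to 3073 CPM in pDC against 2052 to 2238 in cDC2, so it did not set cDC2 apart from pDC. Replicate 3 lay farthest from the other libraries in every subset, and its counts gave a chi-square over genes, divided by its degrees of freedom, of 42.0 to 67.7 with them and 10.6 to 19.8 between replicates 1 and 2. In bulk RNA, fewer cells that express a gene and less RNA per cell cannot be told apart.

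Cells make cholesterol from acetyl-CoA, first through mevalonate to isoprenoid diphosphates and then through squalene and lanosterol. When membranes of the endoplasmic reticulum are poor in sterol, SCAP carries the SREBP precursors to the Golgi, where they are cleaved into transcription factors that act on these enzyme genes, usually together with the factor NF-Y. INSIG proteins hold SCAP back when sterol is plentiful, while LXR receptors respond to oxysterols and turn on genes of sterol export. The tests compared pDC with cDC1, pDC with cDC2 and cDC2 with cDC1.

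The stretches upstream of 9 members are given to show the motif letters in genes of different patterns. For each, 150 bases on the strand of the gene are shown from RefSeq promoters of GRCm38.p6, with exact matches to motifs in capitals. Both strands were searched. The NF-Y box was taken as CCAAT. The sterol regulatory element, bound by SREBP, was taken as TCACNCCAC. The E-box was taken as CACGTG, and none of these matches overlap in the stretches shown.
Hmgcs1, chr13:119690201-119690350, plus strand: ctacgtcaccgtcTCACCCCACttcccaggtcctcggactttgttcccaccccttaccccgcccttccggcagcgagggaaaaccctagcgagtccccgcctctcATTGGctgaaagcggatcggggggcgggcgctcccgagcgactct
Mvk, chr5:114444119-114444268, plus strand: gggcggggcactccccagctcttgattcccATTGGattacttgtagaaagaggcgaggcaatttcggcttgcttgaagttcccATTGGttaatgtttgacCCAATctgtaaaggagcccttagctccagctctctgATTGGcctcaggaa
Mvd, chr8:122443423-122443572, minus strand: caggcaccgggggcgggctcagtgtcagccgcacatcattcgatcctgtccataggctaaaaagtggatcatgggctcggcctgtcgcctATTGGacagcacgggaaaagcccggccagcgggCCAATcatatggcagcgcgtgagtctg
Hsd17b7, chr1:169969242-169969391, minus strand: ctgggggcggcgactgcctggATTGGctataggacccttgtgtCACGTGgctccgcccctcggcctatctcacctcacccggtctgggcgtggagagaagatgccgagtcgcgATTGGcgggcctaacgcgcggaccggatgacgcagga
Sc5d, chr9:42264301-42264450, minus strand: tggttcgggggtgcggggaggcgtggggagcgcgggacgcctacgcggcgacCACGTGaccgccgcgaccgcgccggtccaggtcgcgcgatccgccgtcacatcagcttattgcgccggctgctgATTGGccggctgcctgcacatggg
Insig1, chr5:28071213-28071362, plus strand: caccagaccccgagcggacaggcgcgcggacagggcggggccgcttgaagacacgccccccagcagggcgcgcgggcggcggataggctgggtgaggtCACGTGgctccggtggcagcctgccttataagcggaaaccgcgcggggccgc
Insig2, chr1:121332590-121332739, minus strand: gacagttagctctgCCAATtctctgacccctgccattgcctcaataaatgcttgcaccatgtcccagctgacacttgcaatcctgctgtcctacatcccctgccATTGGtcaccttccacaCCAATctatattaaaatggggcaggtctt
Plin2, chr4:86670061-86670210, minus strand: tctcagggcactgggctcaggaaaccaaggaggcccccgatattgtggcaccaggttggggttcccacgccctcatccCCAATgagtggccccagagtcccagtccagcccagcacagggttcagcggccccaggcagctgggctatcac
Dhcr7, chr7:143822995-143823144, plus strand: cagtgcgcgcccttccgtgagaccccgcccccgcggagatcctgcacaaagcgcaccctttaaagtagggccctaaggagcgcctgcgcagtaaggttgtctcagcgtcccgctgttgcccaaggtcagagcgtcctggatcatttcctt
Hmgcs1, Mvk, Mvd, Hsd17b7, Sc5d, Insig1 and Dhcr7 were highest in pDC, and Insig2 and Plin2 were highest in cDC1. All but Dhcr7 were picked because their stretch holds a match, so the matches shown say nothing of how common they are. The same stretch of Dhcr7, Elovl6, Scap, Acat2, Srebf1 and Cyp51, all highest in pDC, holds none. Outside it, the wider promoter windows described below hold an NF-Y box in Dhcr7, Srebf1 and Cyp51 and an E-box in Dhcr7 and Scap. Those of Dhcr7 lie in windows of other RefSeq starts. Elovl6 and Acat2 hold no match in the wider windows either. The stretch of Hmgcs1 also holds a sterol regulatory element, whose first base lies 137 bases before the RefSeq start, and E-boxes stand in Hsd17b7, Sc5d and Insig1.

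Promoter windows of 300 bases, 250 before to 50 after each start, were found for 37 of the 46 members. Abcg1, Fads1, Fdft1, Fdps, Lpl, Npc1, Scd1, Scd2 and Sqle had no entry. The NF-Y box occurred in 27 of the 37 (73.0%), against 41.1% of all 27025 genes with an entry and 43.0% of the 9381 that were tested for expression. Among the sterol enzymes, 14 of the 15 with an entry held it, all but Acat2. The sterol regulatory element occurred in 1 of the 37 (2.70%), against 1.44% of all genes, and the E-box in 8 (21.6%), against 8.09% of all genes and 11.7% of the genes tested. An LXR direct repeat, searched as 2 exact copies of AGGTCA with 4 bases between them, was in none of the 37 and in 4 of all genes (0.015%). At that share, finding none in 37 was nearly certain beforehand, so the result says nothing of LXR elements with other letters. The searches for the sterol regulatory element and the other motifs would likewise miss looser forms. A match is a string of letters, and no binding was measured.

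**Figure D1:**
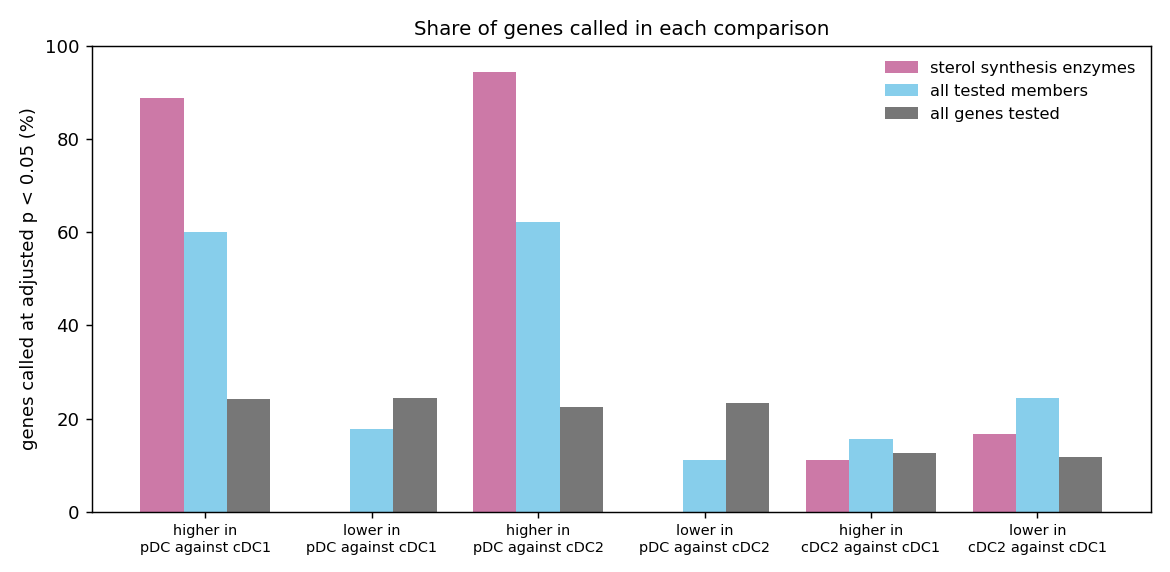
Share of genes called at an adjusted p below 0.05 (vertical axis, percent) in each direction of the 3 comparisons (horizontal axis). Bars are the 18 sterol synthesis enzymes, the 45 tested members and all 13819 genes tested. Sterol enzymes reach 88.9% and 94.4% in the bars for higher in pDC, and 0 in the bars for lower in pDC.

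Members were mostly higher in pDC. Because the list was chosen with earlier results of these data known, the shares of all genes below are a description. An excess over them is not independent support. Against cDC1, 27 of the 45 tested were higher in pDC, where 24.3% of all genes tested were, and 8 were lower, where 24.4% of all genes were. Against cDC2, 28 were higher (all genes 22.5%) and 5 lower (all genes 23.3%). The median log2 fold change of the members was 0.68 against cDC1 and 1.05 against cDC2, beside 0.018 and −0.0088 over all genes tested. Between the conventional subsets the members were more evenly divided, with 7 higher in cDC2 (all genes 12.7%), 11 lower (all genes 11.7%) and a median of −0.16. The count of 7 fell to 4 without cDC1 replicate 2 and, separately, without cDC2 replicate 1. With replicates 1 and 2 of each subset alone, a fit added after the data were seen, 9 members rather than 5 were lower in pDC than in cDC2.

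In all, 40 members differed among the subsets, beside 56.0% of all genes tested. A gene was counted as highest or lowest in a subset where both comparisons with it were called. By that rule 24 members were highest in pDC (17.2% of all genes tested) and 3 were lowest there (16.7%). In cDC2, 2 members were highest (6.53%) and 7 lowest (4.33%). In cDC1, 5 were highest (7.14%) and 5 lowest (6.24%). The comparisons share libraries, so their counts are not independent of each other.

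**Figure D2:**
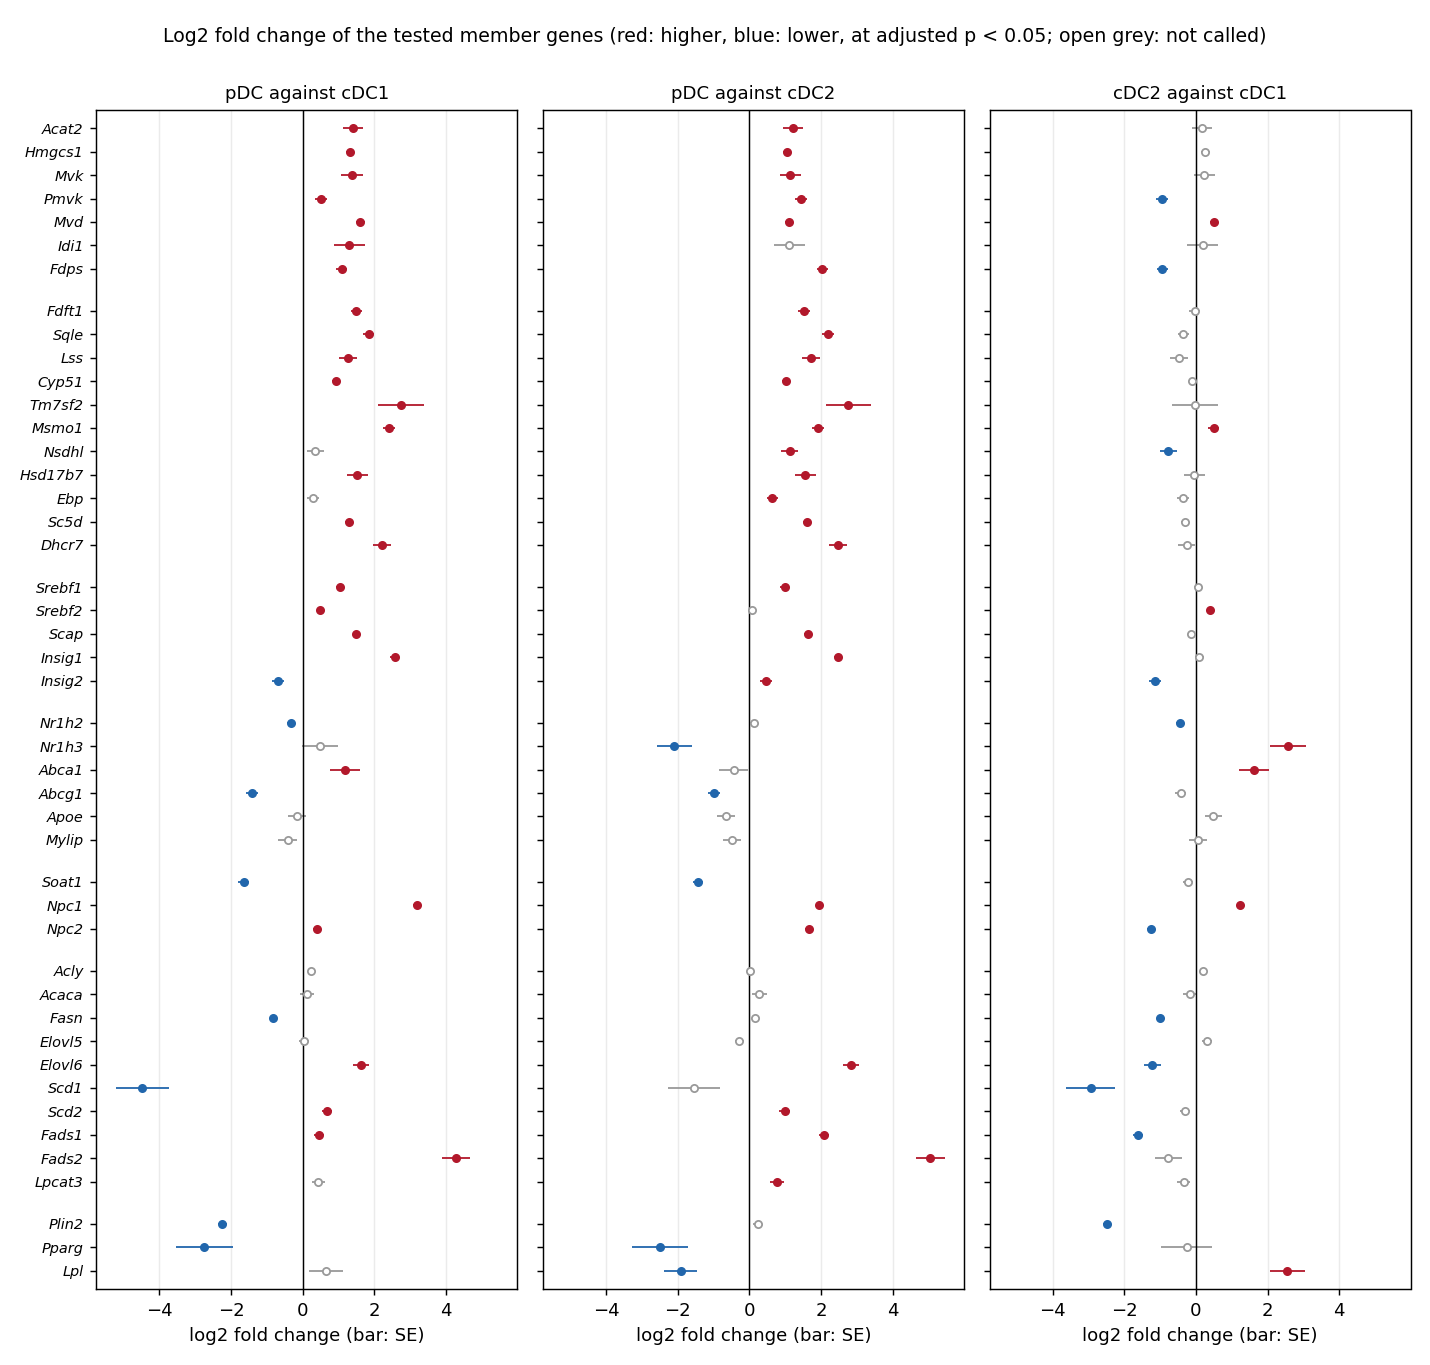
Log2 fold change of each tested member (vertical axis, grouped by role) in the 3 comparisons, with bars for the standard error. Filled points passed an adjusted p of 0.05 (red higher, blue lower) and open grey points did not. The enzymes of sterol synthesis, from Acat2 down to Dhcr7, all lie right of 0 in both comparisons of pDC.

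The 18 sterol synthesis enzymes of the set were mostly higher in pDC, both before squalene and from squalene on. Against cDC1, 16 of 18 were higher and 0 lower (all genes 24.3% and 24.4%). Against cDC2, 17 were higher and 0 lower (all genes 22.5% and 23.3%). Their median log2 fold change was 1.35 against cDC1 and 1.49 against cDC2. Summed over the 18 genes, the level was 1162 to 1319 CPM in the pDC libraries, 467 to 573 in cDC1 and 397 to 467 in cDC2, so the pDC libraries lay apart from the rest. Between cDC2 and cDC1, 2 were higher, 3 lower and 13 were not called.

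In the route from acetyl-CoA to farnesyl diphosphate, 7 of 7 enzymes were higher in pDC against cDC1 and 6 of 7 against cDC2. Fdps, which builds farnesyl diphosphate, stood at 83.3, 90.8 and 98.7 CPM in pDC replicates 1, 2 and 3, at 38.0, 37.7 and 52.4 in cDC1 and at 24.4, 20.9 and 21.2 in cDC2. The 3 groups did not overlap, and pDC exceeded cDC1 by a log2 fold change of 1.09 (SE 0.151, edgeR adjusted p = 0.000221) and cDC2 by 2.03 (SE 0.156, edgeR adjusted p = 4.20e-06). Much of the Fdps transcript recurs elsewhere: 80.4% of its 75-base windows also occur in transcripts of other genes, pseudogenes among them, so its counts are uncertain.

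Mvd, mevalonate diphosphate decarboxylase, stood at 52.7, 58.1 and 58.6 CPM in pDC, 29.0, 23.4 and 26.1 in cDC2 and 19.3, 17.6 and 18.6 in cDC1. Its groups were also separate, and pDC exceeded cDC1 3.06-fold (log2 1.61, SE 0.121, edgeR adjusted p = 3.37e-06). The smaller step from cDC1 to cDC2 (log2 0.50, SE 0.119, edgeR adjusted p = 0.0124) was lost without cDC2 replicate 1 (0.0615) or without cDC1 replicate 2. Pmvk, phosphomevalonate kinase, was at 70.1, 70.6 and 62.4 CPM in pDC, 48.0, 45.9 and 49.4 in cDC1 and 30.2, 25.98 and 18.1 in cDC2, and was lowest in cDC2. It was 2.73-fold higher in pDC than in cDC2 (SE of log2 0.171, edgeR adjusted p = 8.37e-05). Its difference between pDC and cDC1 (log2 0.50, SE 0.168, edgeR adjusted p = 0.0313) lost its call when any of 6 libraries was left out, with a largest adjusted p of 0.1001 without pDC replicate 2.

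Acat2 encodes the cytosolic thiolase that joins acetyl-CoA units, not the sterol ester enzyme that has carried the same name. Its level was 20.04, 20.98 and 11.6 CPM in pDC, 9.08, 8.33 and 5.16 in cDC2 and 6.59, 6.84 and 6.57 in cDC1. Every pDC library was above every other, with a log2 fold change over cDC1 of 1.40 (SE 0.279, edgeR adjusted p = 0.00226). Of its windows, 40.7% recur in Acat3 or Tcp1. Mvk, mevalonate kinase, was at 24.4, 30.4 and 44.2 CPM in pDC, 12.8, 11.3 and 20.6 in cDC2 and 11.4, 10.47 and 16.2 in cDC1, with replicate 3 highest in each subset. It was 2.61-fold higher in pDC than in cDC1 (SE of log2 0.297, edgeR adjusted p = 0.00350).

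Hmgcs1, HMG-CoA synthase, stood at 119 ± 11.8 CPM in pDC, 57.3 ± 4.83 in cDC2 and 47.6 ± 2.83 in cDC1, 2.49-fold and 2.07-fold higher in pDC than in cDC1 and cDC2. With the replicate number as a block, it was also called higher in cDC2 than in cDC1 (log2 0.27, edgeR adjusted p = 0.0291, against 0.126 without the block). Of the windows of Hmgcs1, 12.2% recur in Gm48342, a gene on the opposite strand. Idi1, isopentenyl diphosphate isomerase, was at 16.2 ± 8.12 CPM in pDC, 7.45 ± 2.58 in cDC2 and 6.59 ± 3.19 in cDC1, and replicate 3 was the highest library of each subset. Its log2 fold change of pDC over cDC1 (1.31, SE 0.434, edgeR adjusted p = 0.0309) fell to 0.83 and lost its call without pDC replicate 3 (0.106), and the call was also lost without cDC1 replicate 1 or 2. Against cDC2 it was not called (log2 1.12, SE 0.429, edgeR adjusted p = 0.0571), but was called under 8 of 19 alternatives, among them the block (0.000597) and the fits without cDC1 replicate 3 (0.0384), cDC2 replicate 3 or pDC replicate 2. Idi1 shares 29.1% of its windows with other genes.

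**Figure D3:**
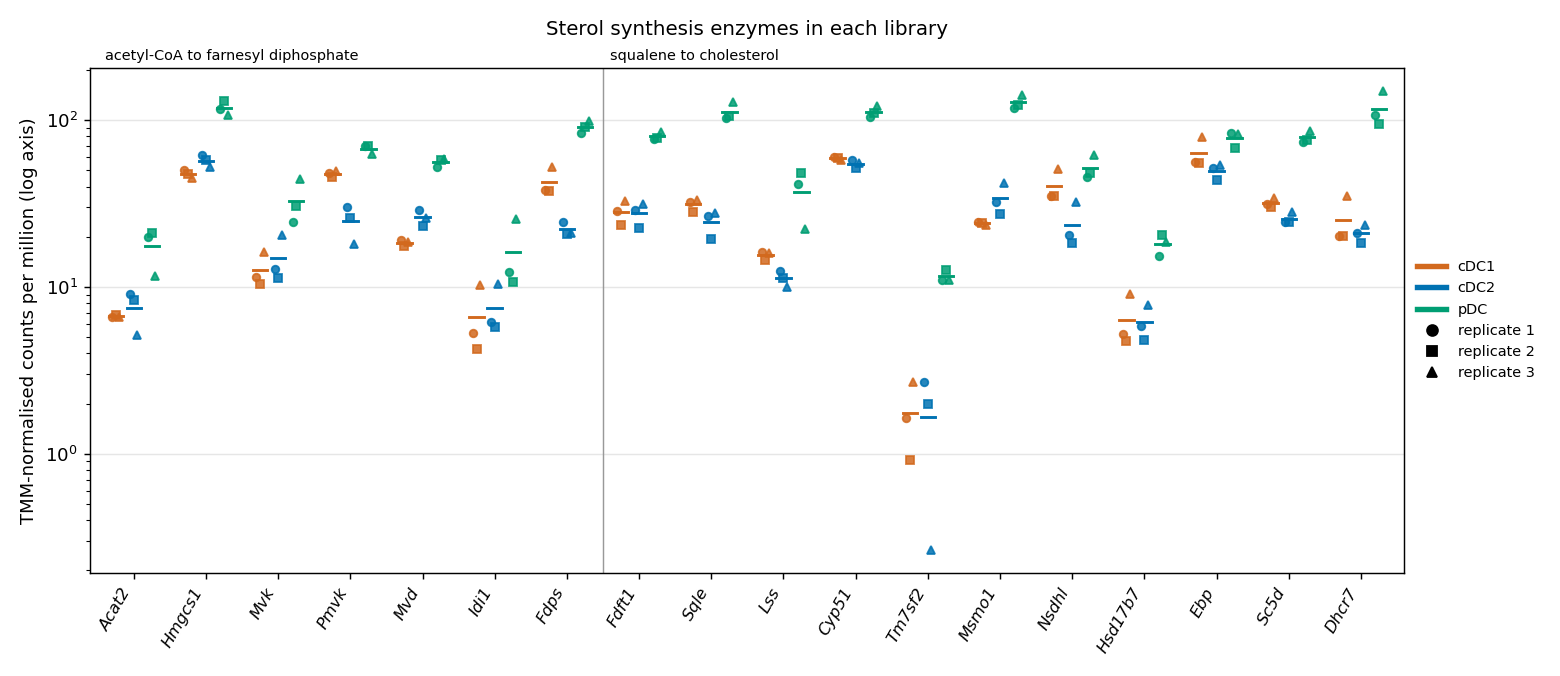
Level of the 18 sterol synthesis enzymes in each library, in TMM-normalised CPM on a log axis, in pathway order from left to right. Colours mark subsets, symbols mark replicates and short lines are means of 3. The green pDC points stand above the others for most genes, and overlap cDC1 for Nsdhl and Ebp.

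From squalene on, 9 of 11 enzymes were higher in pDC against cDC1 and 11 of 11 against cDC2. The largest fold changes were those of Tm7sf2, a sterol reductase, which was also the least abundant of the 18 per kilobase in the conventional subsets. It stood at 10.96, 12.7 and 11.1 CPM in pDC, 1.64, 0.917 and 2.71 in cDC1 and 2.71, 2.00 and 0.266 in cDC2. The pDC libraries did not overlap with the rest, with a log2 fold change of 2.75 against cDC1 (SE 0.637, edgeR adjusted p = 0.00530) and 2.77 against cDC2 (SE 0.629, edgeR adjusted p = 0.00510). Exons of Vps51 on the same strand cover 12.1% of its exon bases.

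Dhcr7, the reductase that forms cholesterol at the end of one branch, was at 107, 94.6 and 151 CPM in pDC, 20.3, 20.2 and 35.3 in cDC1 and 20.97, 18.5 and 23.7 in cDC2. The lowest pDC library lay well above the highest conventional one, and pDC was 4.67-fold above cDC1 and 5.58-fold above cDC2 (SE of log2 0.255 and 0.257, edgeR adjusted p = 6.17e-05 and 3.41e-05). Msmo1, a methylsterol monooxygenase, stood at 118, 123 and 142 CPM in pDC, 32.4, 27.5 and 42.0 in cDC2 and 24.5, 24.3 and 23.5 in cDC1. It was 5.31-fold higher in pDC than in cDC1 (log2 2.41, SE 0.161, edgeR adjusted p = 1.63e-06). The groups did not overlap, but the call between cDC2 and cDC1 (log2 0.49, SE 0.155, edgeR adjusted p = 0.0446) was lost without any of 7 libraries, with a largest adjusted p of 0.156 and a log2 fold change of 0.29 without cDC2 replicate 3. That call was lost under 12 of 19 alternatives in all, among them limma-voom (0.0762) and upper quartile scaling (0.0677).

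Sqle, squalene epoxidase, which commits squalene to the sterol route, was at 104, 105 and 128 CPM in pDC, 32.4, 28.4 and 33.5 in cDC1 and 26.6, 19.3 and 27.9 in cDC2. All pDC libraries were higher than all conventional ones, 3.58-fold on average against cDC1 and 4.57-fold against cDC2 (SE of log2 0.161 and 0.163, edgeR adjusted p = 9.56e-06 and 3.47e-06). With the block, Sqle was also called lower in cDC2 than in cDC1 (log2 −0.37, edgeR adjusted p = 0.0236). Lss, lanosterol synthase, stood at 41.3, 48.1 and 22.4 CPM in pDC, 16.2, 14.6 and 16.0 in cDC1 and 12.5, 11.3 and 10.05 in cDC2. Its pDC replicate 3 lay closer to the cDC1 libraries than to the other pDC libraries, and pDC was 2.39-fold higher than cDC1 (SE of log2 0.249, edgeR adjusted p = 0.00220). Between cDC2 and cDC1, Lss was not called (log2 −0.47, edgeR adjusted p = 0.226) except without pDC replicate 3 (0.0269), in the 6 libraries of these subsets alone (0.0413) and in replicates 1 and 2 alone (0.0418).

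The other enzymes of this stage are given by their means. Fdft1, squalene synthase, stood at 80.1 ± 4.64 CPM in pDC, 28.4 ± 4.68 in cDC1 and 27.7 ± 4.57 in cDC2. Exons of Ctsb on the opposite strand cover 18.3% of its exon bases, and whether counting used the strand is not stated. Of the windows of Fdft1, 25.4% recur in Ctsb or Gm6781. Hsd17b7, a ketosteroid reductase, was at 18.2 ± 2.55 in pDC, 6.38 ± 2.40 in cDC1 and 6.16 ± 1.53 in cDC2. Sc5d, a sterol desaturase, was at 78.8 ± 6.45, 31.9 ± 2.00 and 25.7 ± 2.02 in the same order. Cyp51, the lanosterol demethylase, was at 112 ± 8.39, 59.2 ± 1.22 and 55.03 ± 3.23. These 4 were highest in pDC, from 1.89-fold above cDC1 (Cyp51) to 3.06-fold above cDC2 (Sc5d).

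Nsdhl, a sterol dehydrogenase, and Ebp, a sterol isomerase, were the exceptions against cDC1. Nsdhl stood at 51.8 ± 8.57 CPM in pDC and 40.5 ± 9.16 in cDC1 (log2 0.36, SE 0.238, edgeR adjusted p = 0.246), and Ebp at 78.1 ± 8.92 and 63.6 ± 13.3 (log2 0.30, SE 0.163, edgeR adjusted p = 0.163). Both differences were called with the block (edgeR adjusted p = 0.0129 and 0.0295), and that of Ebp also without cDC1 replicate 3 (0.0331). Both genes were higher in pDC than in cDC2, where Nsdhl was at 23.7 ± 7.55 and Ebp at 49.9 ± 5.38. Nsdhl was lower in cDC2 than in cDC1 (log2 −0.77, SE 0.241, edgeR adjusted p = 0.0420). This call was lost under 8 of 19 alternatives, 6 of them with a library left out, with a largest adjusted p of 0.143 without cDC2 replicate 1. With the block, Ebp and Sc5d were called lower in cDC2 than in cDC1 as well (log2 −0.34 and −0.31, edgeR adjusted p = 0.0318 and 0.0134), Sc5d also without cDC2 replicate 3 (0.0403).

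Other differences between these libraries moved with the pDC result. All 8 genes of a list of cycling cells were lower in pDC, with a summed level of 54.3 to 76.9 CPM against 823 to 1080 in cDC1 and 861 to 990 in cDC2. A plasma cell list of 6 genes summed to 415 to 653 CPM in pDC against 15.7 to 20.3 in cDC1 and 29.5 to 37.2 in cDC2. Its genes did not all go the same way. Of 5 tested, 3 were higher and 0 lower in pDC than in cDC1, and 4 were higher and 1 lower than in cDC2. Its marker Tnfrsf17 was at the floor in cDC1 only. The part of both lists in the levels of the sterol enzymes was not tested. Sterol enzymes also moved with the replicate number: 10 of the 18 were higher in replicate 3 than in replicates 1 and 2 in all 3 subsets, a pattern of 23.0% of all genes tested. Idi1 was higher there by 0.97, 0.71 and 1.09 on the log2 scale in cDC1, cDC2 and pDC, while Acat2 and Hmgcs1 were lower in replicate 3 in all 3 subsets. With replicates 1 and 2 alone, 28 members were higher in pDC than in cDC1, with Ebp and Nsdhl gained and Abca1 lost, and 29 were higher than in cDC2, with Idi1 gained.

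The SREBP genes were mostly higher in pDC as well. Against cDC1, 4 of 5 were higher (all genes 24.3%) and Insig2 was lower. Against cDC2, 4 were higher (all genes 22.5%) and Srebf2 was not called. Insig1 (chr5:28071363-28078662), which holds SCAP in the endoplasmic reticulum and is itself an SREBP target, had the largest difference of the 5. It stood at 185, 180 and 203 CPM in pDC, 31.3, 31.4 and 33.0 in cDC1 and 32.8, 30.0 and 39.4 in cDC2. The pDC libraries lay far above the others, 5.94-fold against cDC1 (log2 2.57, SE 0.125, edgeR adjusted p = 2.24e-07) and 5.56-fold against cDC2 (log2 2.48, SE 0.125, edgeR adjusted p = 3.00e-07).

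Its relative Insig2 was instead highest in cDC1. It was at 39.0, 39.3 and 29.3 CPM in cDC1, 21.9, 20.98 and 24.3 in pDC and 14.2, 15.6 and 19.1 in cDC2. Every cDC1 library exceeded every other, with a log2 fold change of −0.68 for pDC against cDC1 (SE 0.165, edgeR adjusted p = 0.00669) and −1.14 for cDC2 against cDC1 (SE 0.166, edgeR adjusted p = 0.000787). The step from cDC2 to pDC (log2 0.46, SE 0.166, edgeR adjusted p = 0.0454) was lost under 13 of 19 alternatives, 7 of them with a library left out, with a largest adjusted p of 0.159 without cDC2 replicate 1. Per kilobase, the means of Insig1 and Insig2 were close in cDC1 (10.3 CPM per kb each). The ratio of Insig1 to Insig2 there was 0.899 without cDC1 replicate 3 and 1.06 without cDC1 replicate 2. Insig1 exceeded Insig2 2.35 times in cDC2 and 9.50 times in pDC.

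Scap, the sterol-sensing escort, stood at 311, 339 and 353 CPM in pDC, 115, 114 and 126 in cDC1 and 103, 102 and 120 in cDC2. The pDC libraries were separate from the rest, 2.83-fold above cDC1 and 3.09-fold above cDC2 (SE of log2 0.104 for both, edgeR adjusted p = 2.04e-06 and 1.28e-06). Of its windows, 10.2% also occur in a gene on the opposite strand. Srebf1, whose main products drive fatty acid genes, was at 120, 135 and 143 CPM in pDC, 56.9, 63.4 and 71.5 in cDC1 and 66.5, 69.2 and 65.2 in cDC2, and was 2.07-fold and 1.98-fold higher in pDC (SE of log2 0.116 for both, edgeR adjusted p = 4.71e-05 and 8.13e-05). The conventional subsets overlapped in Srebf1 and did not differ by the test.

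Srebf2, the factor that acts mainly on sterol genes, moved less. Its level was 503, 524 and 578 CPM in pDC, 509, 479 and 523 in cDC2 and 378, 386 and 379 in cDC1. The pDC and cDC2 libraries overlapped (log2 0.088, SE 0.0861, edgeR adjusted p = 0.445), and both subsets were above cDC1, pDC by 1.40-fold (SE of log2 0.0863, edgeR adjusted p = 0.00108) and cDC2 by 1.32-fold (SE of log2 0.0862, edgeR adjusted p = 0.00737). Per kilobase, Srebf2 exceeded Srebf1 4.68 times in cDC1, 5.90 times in cDC2 and 3.17 times in pDC.

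Of 6 further genes of SREBP processing and INSIG turnover, 4 were higher and 1 lower in pDC against cDC1 (all genes 24.3% and 24.4%). Against cDC2, 5 were higher and 1 lower in pDC (all genes 22.5% and 23.3%). The site proteases Mbtps1 and Mbtps2, which cleave the SREBP precursors in the Golgi, had means of 179 and 41.2 CPM in pDC, 135 and 23.2 in cDC1 and 131 and 18.8 in cDC2. Rnf145, a ubiquitin ligase, went the other way, from 175 CPM in cDC1 and 104 in cDC2 to 46.6 in pDC.

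**Figure D4:**
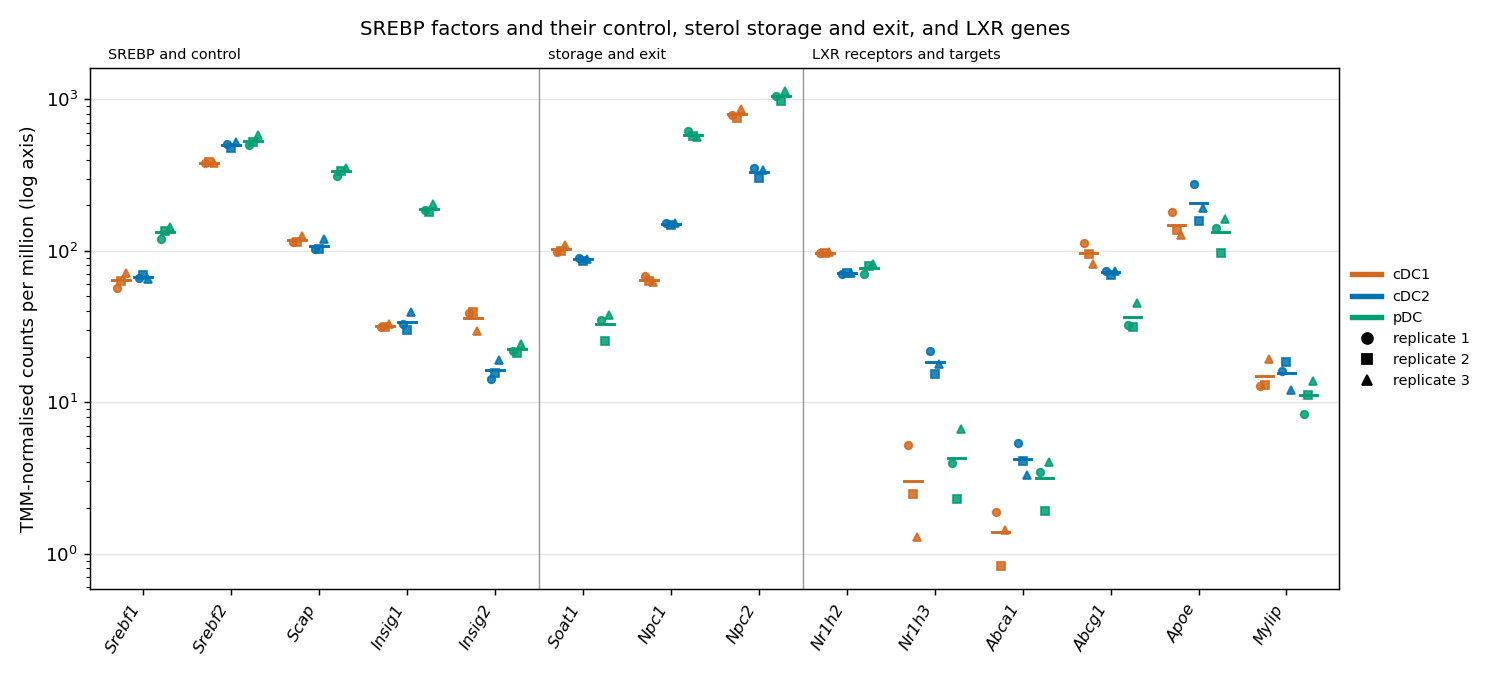
Level in each library, in TMM-normalised CPM on a log axis, of the SREBP genes, the 3 tested genes of sterol storage and lysosomal exit, and the LXR genes. Colours mark subsets, symbols mark replicates and short lines are means of 3. Insig1, Scap and Npc1 have pDC above the other subsets, while Soat1 and Abcg1 have pDC below them.

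Genes that take sterol out of the lysosome were highest in pDC, and the gene that stores it as ester was lowest there. Npc1, the membrane transporter that exports cholesterol from lysosomes, stood at 623, 569 and 563 CPM in pDC, 153, 147 and 152 in cDC2 and 67.9, 62.9 and 61.8 in cDC1. The 3 subsets were fully separate, and pDC was 9.11-fold above cDC1 (log2 3.19, SE 0.0937, edgeR adjusted p = 3.35e-08) and 3.89-fold above cDC2 (log2 1.96, SE 0.0891, edgeR adjusted p = 1.78e-07). In cDC2 it was 2.34-fold above cDC1 (SE of log2 0.0877, edgeR adjusted p = 1.09e-05).

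Npc2, the soluble partner that hands cholesterol to Npc1, was at 1056, 978 and 1132 CPM in pDC, 791, 749 and 860 in cDC1 and 353, 302 and 343 in cDC2. Here cDC1 lay close to pDC, which was 1.32-fold higher (SE of log2 0.10004, edgeR adjusted p = 0.00805), and cDC2 lay below both, 2.41-fold lower than cDC1 (SE of log2 0.101, edgeR adjusted p = 2.18e-05). Npc2 was the most abundant of the tested members per kilobase in cDC1 and pDC, at 147 and 194 CPM per kb. Per kilobase it exceeded Npc1 by 25.9 times in cDC1, by 4.59 times in cDC2 and by 3.75 times in pDC.

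Soat1, which esterifies cholesterol for droplets, stood at 34.9, 25.4 and 37.7 CPM in pDC, 97.7, 99.8 and 110 in cDC1 and 90.0, 85.6 and 88.9 in cDC2. All pDC libraries were below all others, 3.13-fold against cDC1 (log2 −1.65, SE 0.146, edgeR adjusted p = 1.02e-05) and 2.70-fold against cDC2 (log2 −1.43, SE 0.145, edgeR adjusted p = 2.93e-05). Ch25h, which makes 25-hydroxycholesterol, had at most 3 counts in every library except pDC replicate 3, which had 26 (1.53 CPM). No fold change is given for Ch25h, which was too low to be tested.

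Of 19 tested genes of sterol transport and esters outside the set, 9 were higher and 3 lower in pDC than in each conventional subset. The shares of all genes were 24.3% higher and 24.4% lower against cDC1, and 22.5% and 23.3% against cDC2. Nceh1, a neutral cholesterol ester hydrolase, had means of 204 CPM in pDC, 17.3 in cDC1 and 21.8 in cDC2, and Stard3, a late endosomal sterol carrier, had 117, 45.6 and 62.1. Lipa, the lysosomal ester hydrolase, was lower in pDC, at 175 CPM against 452 and 293. Osbp and Stard4, which move sterol between membranes, were not called in any comparison.

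The LXR genes went in different directions. Of 6, 1 was higher and 2 were lower in pDC than in cDC1, which for so few genes is near the shares of all genes (24.3% and 24.4%). Against cDC2, 0 were higher and 2 lower in pDC (all genes 22.5% and 23.3%). Nr1h2, the widely expressed LXR beta, was at 97.2, 96.0 and 98.1 CPM in cDC1, 70.6, 71.2 and 71.6 in cDC2 and 70.1, 79.8 and 81.9 in pDC. It was highest in cDC1, by a log2 fold change of −0.45 for cDC2 (SE 0.0945, edgeR adjusted p = 0.00656) and −0.33 for pDC (SE 0.0945, edgeR adjusted p = 0.0158). The call for pDC was lost without pDC replicate 1 (0.0692) or cDC1 replicate 1 and with library size alone as the scaling (0.0563).

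Nr1h3, LXR alpha, the form known from macrophages, stood at 21.8, 15.3 and 17.8 CPM in cDC2, 5.25, 2.46 and 1.29 in cDC1 and 3.97, 2.28 and 6.66 in pDC. Every cDC2 library was above every other, 5.97-fold on average against cDC1 (log2 2.58, SE 0.503, edgeR adjusted p = 0.00432), and pDC was lower than cDC2 (log2 −2.10, SE 0.492, edgeR adjusted p = 0.00609). Per kilobase, Nr1h2 exceeded Nr1h3 24.3 times in cDC1 (38.8 without cDC1 replicate 1), 13.5 times in pDC and 2.91 times in cDC2. Beside this, a list of 10 macrophage genes summed to 521 to 758 CPM in cDC2, 175 to 274 in cDC1 and 70.6 to 290 in pDC. Of its genes, 5 were higher and 0 lower in cDC2 than in cDC1, and none was at the floor in any subset. Only 2 were lower in pDC than in cDC2, and 0 were higher. A list of 7 monocyte genes also had 5 higher in cDC2 than in cDC1 and none at the floor, but its sum was highest in pDC, at 2339 to 3563 CPM against 1998 to 2629 in cDC2 and 466 to 719 in cDC1. The part of either list in the level of Nr1h3 was not tested.

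The exporters that LXR turns on went different ways. Abcg1, which moves sterol to lipoproteins, was at 113, 95.4 and 82.1 CPM in cDC1, 73.2, 69.2 and 73.5 in cDC2 and 32.5, 31.4 and 45.1 in pDC. It was lowest in pDC, by −1.41 against cDC1 (SE 0.166, edgeR adjusted p = 7.28e-05) and −0.99 against cDC2 (SE 0.165, edgeR adjusted p = 0.000818) on the log2 scale. The difference between cDC2 and cDC1 (−0.43, edgeR adjusted p = 0.0885) was called without pDC replicate 3 (0.0292) or cDC1 replicate 3. Abca1, which loads sterol on apolipoproteins, was scarce, at 5.39, 4.06 and 3.30 CPM in cDC2, 3.48, 1.93 and 4.01 in pDC and 1.89, 0.834 and 1.42 in cDC1. It was lowest in cDC1 (log2 1.62 for cDC2, SE 0.424, edgeR adjusted p = 0.0200, and 1.18 for pDC, SE 0.424, edgeR adjusted p = 0.0433). These calls were lost without any of 4 and 6 libraries, with largest adjusted p of 0.0877 without cDC2 replicate 1 and 0.145 without cDC1 replicate 2. The call for pDC was lost under 11 of 19 alternatives in all, among them limma-voom (0.0601) and the 6-library fit (0.0745).

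Apoe, the apolipoprotein that accepts exported sterol, stood at 275, 158 and 191 CPM in cDC2, 180, 137 and 128 in cDC1 and 142, 96.2 and 162 in pDC. The subsets overlapped and no difference was called, the nearest being pDC against cDC2 (log2 −0.65, SE 0.245, edgeR adjusted p = 0.0554). With the block, Apoe was called lower in pDC than in cDC2 (−0.63, edgeR adjusted p = 0.00720) and higher in cDC2 than in cDC1 (0.46, edgeR adjusted p = 0.0448). The first was called under 8 of 19 alternatives, among them the fits without cDC2 replicate 2 (0.0302) or pDC replicate 3. Mylip, a ubiquitin ligase induced by LXR, was at 12.8, 13.01 and 19.2 CPM in cDC1, 16.1, 18.6 and 12.01 in cDC2 and 8.41, 11.2 and 13.9 in pDC. It overlapped between all subsets and was not called, but was lower in pDC in replicates 1 and 2 alone (log2 −0.44 and −0.83 against cDC1 and cDC2, edgeR adjusted p = 0.0474 and 0.00358).

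Fatty acid genes split by step. Of the 10, 4 were higher and 2 lower in pDC than in cDC1 (all genes 24.3% and 24.4%). For so few genes these counts are not far from the shares of all genes. Against cDC2, 5 were higher and 0 lower in pDC (all genes 22.5% and 23.3%). In cDC2, 0 were higher and 4 lower than in cDC1 (all genes 12.7% and 11.7%). The largest fold change of any member was that of Fads2 (chr19:10062765-10101746), the first desaturase of polyunsaturated fatty acid synthesis. It stood at 114, 122 and 153 CPM in pDC, 6.08, 5.67 and 8.33 in cDC1 and 2.52, 2.49 and 7.02 in cDC2. The pDC libraries were far above the others, 19.5-fold against cDC1 (log2 4.28, SE 0.386, edgeR adjusted p = 1.15e-05) and 33.2-fold against cDC2 (log2 5.06, SE 0.403, edgeR adjusted p = 5.52e-06). Fads2 was not called between cDC2 and cDC1 (log2 −0.77, edgeR adjusted p = 0.178), except with the block (0.0189), without cDC2 replicate 3 (log2 −1.43, 0.00199) and in replicates 1 and 2 alone (0.000248).

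Fads1 (chr19:10182888-10196877), the desaturase that follows Fads2 in the route and its neighbour on the chromosome, was at 65.2, 63.7 and 70.7 CPM in pDC, 43.6, 45.5 and 55.5 in cDC1 and 15.1, 14.1 and 18.2 in cDC2. The groups did not overlap, and the gap was wider to cDC2 (4.22-fold, SE of log2 0.143, edgeR adjusted p = 2.09e-06) than to cDC1 (1.38-fold, SE of log2 0.137, edgeR adjusted p = 0.0176). The call against cDC1 was lost without cDC1 replicate 1 (0.0779) or 2. The third gene of this family, Fads3, which is outside the set, had the largest log2 fold change of the other lipid genes in pDC against cDC2, at 143, 144 and 138 CPM in pDC, 2.11, 1.38 and 2.44 in cDC1 and 0.924, 0.385 and 1.22 in cDC2 (log2 7.43, SE 0.336, edgeR adjusted p = 1.72e-07). All 3 genes were highest in pDC.

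Elovl6, which elongates saturated fatty acids, stood at 50.5, 45.8 and 60.8 CPM in pDC, 15.8, 15.9 and 19.2 in cDC1 and 5.26, 6.90 and 9.94 in cDC2. The 3 groups were separate, with pDC 3.09-fold above cDC1 and 7.16-fold above cDC2 (SE of log2 0.223 and 0.234, edgeR adjusted p = 0.000205 and 7.04e-06). Fasn, fatty acid synthase, was instead highest in cDC1, at 246, 278 and 278 CPM against 127, 138 and 138 in cDC2 and 142, 148 and 164 in pDC. It was 1.99-fold above cDC2 and 1.77-fold above pDC (SE of log2 0.0997 and 0.0994, edgeR adjusted p = 7.94e-05 and 8.62e-05), and with the block it was also called higher in pDC than in cDC2 (log2 0.17, edgeR adjusted p = 0.0450).

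The stearoyl-CoA desaturases, which introduce the double bond of oleate, differed from each other. Scd1 stood at 9.58, 11.6 and 12.4 CPM in cDC1, 1.56, 2.14 and 0.585 in cDC2 and 0.787, 0.608 and 0 in pDC. It was highest in cDC1, with a log2 fold change of −4.47 for pDC (SE 0.748, edgeR adjusted p = 0.000759) and −2.94 for cDC2 (SE 0.674, edgeR adjusted p = 0.0103); fold changes of so few counts depend on the prior count of the fit. Between pDC and cDC2 it was not called (log2 −1.53, edgeR adjusted p = 0.113), except by DESeq2 (0.0448) and in replicates 1 and 2 alone (0.00484). Scd2 was highest in pDC, at 255 ± 23.6 CPM against 159 ± 30.5 in cDC1 and 128 ± 15.2 in cDC2 (1.604-fold and 1.98-fold, edgeR adjusted p = 0.00405 and 0.000468). Per kilobase, Scd2 exceeded Scd1 12.7 times in cDC1. With the block, Scd2 was called lower in cDC2 than in cDC1 (log2 −0.30, edgeR adjusted p = 0.0109).

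The remaining genes of this group are given by their means. Acly, which supplies cytosolic acetyl-CoA, stood at 276 ± 12.8 CPM in pDC, 271 ± 13.5 in cDC2 and 235 ± 16.4 in cDC1, and was called between pDC and cDC1 with the block (log2 0.23, edgeR adjusted p = 0.0239), by DESeq2 (0.0418), by limma-voom (0.0468) and with library size alone (0.0200), but not in the quasi-likelihood fit without the block (0.0628). Acaca, acetyl-CoA carboxylase, was at 32.3 ± 5.55, 26.5 ± 3.57 and 29.6 ± 7.29 CPM in the same order and was not called, and 47.4% of its windows recur in a pseudogene. Elovl5, an elongase of polyunsaturated fatty acids, was at 175 ± 27.6, 211 ± 12.1 and 170 ± 19.1 CPM. It was not called, but with the block it was lower in pDC than in cDC2 (log2 −0.28, edgeR adjusted p = 0.00670) and higher in cDC2 than in cDC1 (0.32, edgeR adjusted p = 0.00600). The first was also called without pDC replicate 3 (0.0219), and the second with library size alone (0.0244). Lpcat3, which places polyunsaturated fatty acids in phospholipids, was at 37.0 ± 7.71, 21.6 ± 3.66 and 27.5 ± 2.47 CPM and was higher in pDC than in cDC2 (log2 0.77, SE 0.184, edgeR adjusted p = 0.00651). Against cDC1 it was called without pDC replicate 2 (0.0420) and with library size alone (0.0324), and 11.8% of its windows recur in Emg1.

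**Figure D5:**
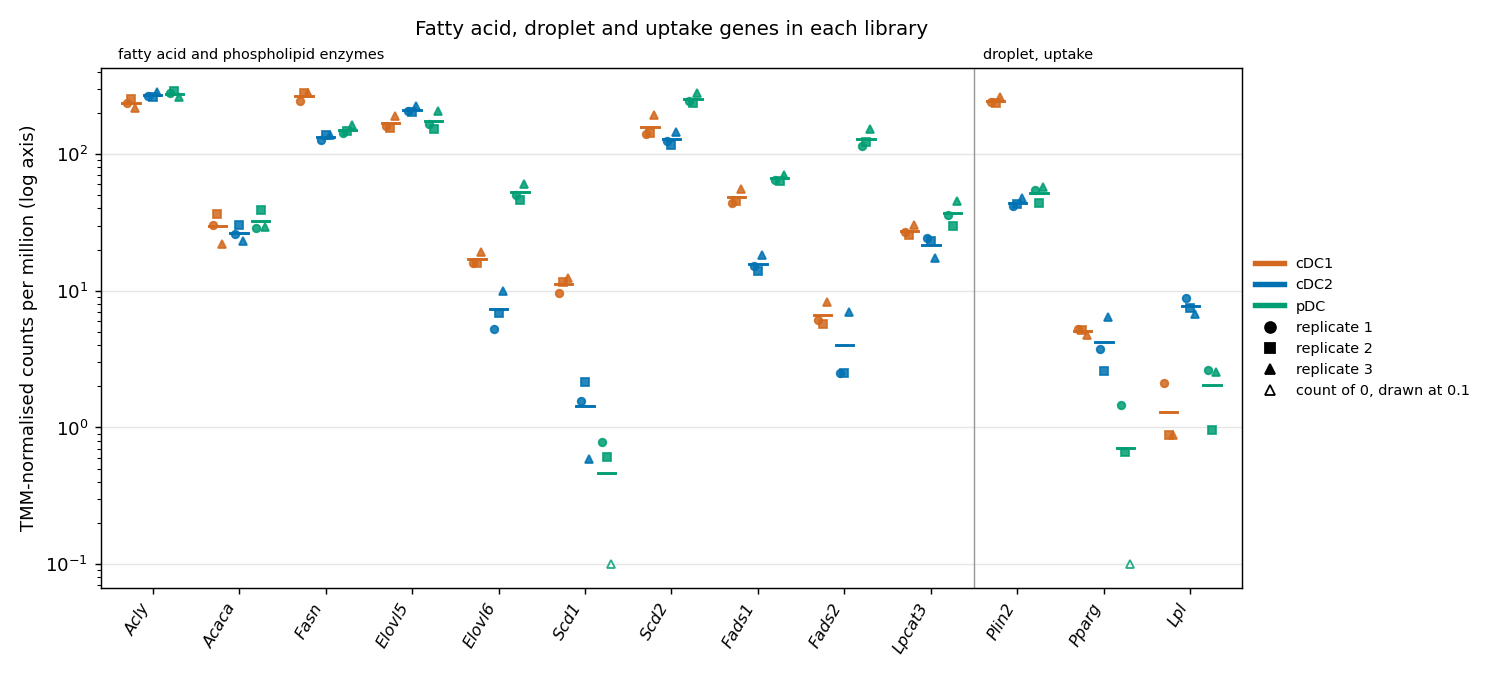
Level in each library, in TMM-normalised CPM on a log axis, of the fatty acid and phospholipid genes and the droplet and uptake genes. Colours mark subsets, symbols mark replicates, short lines are means of 3 and open symbols are counts of 0. Fads2 and Elovl6 are highest in pDC, and Plin2, Fasn and Scd1 in cDC1.

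Of the 3 droplet and uptake genes, 0 were higher and 2 lower in pDC than in each conventional subset. The list is too short to set against the shares of all genes, 24.3% higher and 24.4% lower against cDC1. Against cDC2 those shares were 22.5% and 23.3%. Plin2, the coat protein of lipid droplets, stood at 241, 236 and 261 CPM in cDC1, 41.6, 43.1 and 47.5 in cDC2 and 54.2, 44.2 and 57.3 in pDC. The cDC1 libraries were far above the others, 5.58-fold against cDC2 (log2 −2.48 for cDC2, SE 0.124, edgeR adjusted p = 1.96e-06) and 4.74-fold against pDC (log2 −2.25 for pDC, SE 0.123, edgeR adjusted p = 4.95e-07). Between pDC and cDC2, Plin2 was not called (log2 0.24, SE 0.118, edgeR adjusted p = 0.134), except with the block (0.0365) and without pDC replicate 2 (0.0370).

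Pparg, the receptor that drives lipid storage genes, was scarce, at 5.28, 5.13 and 4.74 CPM in cDC1, 3.73, 2.59 and 6.43 in cDC2 and 1.45, 0.659 and 0 in pDC. It was lowest in pDC (log2 −2.74 against cDC1, SE 0.793, edgeR adjusted p = 0.0165, and −2.49 against cDC2, SE 0.788, edgeR adjusted p = 0.0266). The second call was lost without cDC2 replicate 3 (0.0799), cDC2 replicate 1 or pDC replicate 2, and in the 6 libraries of these subsets alone (0.0760). Lpl, which frees fatty acids from lipoproteins, stood at 8.89, 7.53 and 6.80 CPM in cDC2, 2.11, 0.876 and 0.880 in cDC1 and 2.63, 0.963 and 2.53 in pDC. It was highest in cDC2, 5.89-fold above cDC1 (log2 2.56, SE 0.477, edgeR adjusted p = 0.00336) and 3.77-fold above pDC (SE of log2 0.461, edgeR adjusted p = 0.00701). Like Nr1h3, it was highest in the subset with the highest sum of the macrophage list. Only 2 of the 10 genes of that list were called lower in pDC than in cDC2, and the part of the list in the level of Lpl was not tested.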

How the data were processed

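The data were RNA-seq libraries of cDC1, cDC2 and pDC from mouse spleen. The deposited values were raw read counts per gene, not normalized by the authors, in a table whose 9 sample columns were all used. The submitters' processing notes name STAR, SAMtools, featureCounts, MultiQC and mm10, without versions, and the paper names Degust. Whether counting used the strand is not stated.

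Groups and replicate numbers came from the labels. Counts were analysed with edgeR 4.0.16 in R 4.3.3: filterByExpr with a minimum count of 10 (13819 of 39179 genes), TMM scaling, and a quasi-likelihood test of each contrast in 1 fit over the 9 libraries, with Benjamini-Hochberg adjustment over all genes tested and a threshold of 0.05. Each replicate number carries its own date code, but the labels do not say what that date marks. Nothing says that replicates came from separate animals, so p-values measure the spread between these libraries, which may be technical. These p-values come from the fit without a block unless another fit is named. SE is the log2 fold change divided by the square root of F. The same replicate number carries the same date code in every subset, and deviations from the subset means correlated in all 9 same-numbered pairs (mean 0.403, range 0.266 to 0.543), so a fit with the replicate number as a block is given where it changes a call. Alternatives were DESeq2 1.42.0, limma-voom (limma 3.58.1), other scalings and filters, a stricter threshold, 6-library fits and each library left out. The members and lists were chosen with earlier results of these data known. Values in every library were given, by rule, for up to 5 called members per role with the largest changes and a mean of at least 1 CPM, and for all SREBP and LXR genes; for other lipid genes, the 2 called genes with the largest change in each direction of each comparison were named, and further ones were chosen after their values were seen. Exons, positions and shared 75-base windows come from GENCODE M21 (GRCm38). The test was tried on simulated data. Some genes of these pathways are not reported here.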

Additional observations from a re-analysis of the deposited data

How the results depend on the processing

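Of 86 called comparisons of single members, 75 kept their call under every alternative that gave a value, 11 lost it under at least 1, and 0 changed direction. There were 19 such alternatives, or 18 for Pparg, Scd1 and Tm7sf2, which a minimum of 10 counts in every library left out. A limit on fold change was applied to counts of calls only and is not among the 19. Counts moved most when calls also had to change by 1 or more on the log2 scale. Members higher in cDC2 than in cDC1 then numbered 4, members lower in cDC2 than in cDC1 6, and members lower in pDC than in cDC1 5. Other lipid pathway genes then numbered 17 higher and 17 lower in pDC than in cDC1, 17 higher and 13 lower in pDC than in cDC2, and 7 higher and 11 lower in cDC2 than in cDC1; the counts without this limit were 33 and 27, 36 and 22, and 19 and 24. With 1 library left out, members higher in cDC2 than in cDC1 ranged from 4 to 7 and members lower in pDC than in cDC2 from 4 to 7. In replicates 1 and 2 of each subset, chosen after seeing the data, members lower in pDC than in cDC2 numbered 9. With the replicate block, members higher in pDC numbered 30 against cDC1 and 31 against cDC2, and no count of members moved by over 1.5 times; beyond the calls gained in the report, the block changed no call of a member. With library size alone, the median log2 fold change of all genes was 0.108 for pDC against cDC1 and 0.137 for cDC2 against cDC1, and 63.1% of the calls between cDC2 and cDC1 were higher in cDC2, against 52.2% with TMM. The causes were not tested. Members below 1 CPM in a subset (Scd1 and Pparg in pDC) rest on few counts.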

Other observations

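Other lipid pathway genes, 118 from lists outside the set and 100 of them tested, were divided between the subsets. In pDC, 33 were higher and 27 lower than in cDC1, and 36 were higher and 22 lower than in cDC2, with medians of −0.022 and 0.15 on the log2 scale. Of all genes tested, 24.3% were higher and 24.4% lower in pDC than in cDC1, and 22.5% and 23.3% than in cDC2. Of 5 tested genes of phospholipid remodelling, which exchange fatty acids on phospholipids, 4 were lower in pDC than in cDC1 and 5 lower than in cDC2, with 0 higher. Lpcat3, the gene of this kind in the set, went the other way against cDC2 (log2 0.77, edgeR adjusted p = 0.00651). Lpcat2 stood at 78.3, 72.2 and 89.0 CPM in cDC2, 16.7, 14.0 and 23.6 in cDC1 and 4.21, 1.37 and 3.00 in pDC, a log2 fold change of −4.77 for pDC against cDC2 (SE 0.36, edgeR adjusted p = 4.13e-06). Lpcat4 had 3.20 ± 0.864 CPM in pDC against 30.5 ± 0.548 in cDC1 and 22.9 ± 0.644 in cDC2, and Mboat1 had 1.19 ± 1.48 against 18.5 ± 1.88 and 8.60 ± 1.23.

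Among oxysterol genes, Hsd11b1, which interconverts glucocorticoids and also acts on oxysterols, stood at 63.8, 60.6 and 78.1 CPM in pDC, 0.619, 0.626 and 0.745 in cDC1 and 1.18, 1.65 and 1.28 in cDC2, a log2 fold change of 6.68 for pDC against cDC1 (SE 0.21, edgeR adjusted p = 3.35e-08). Cyp7b1, an oxysterol hydroxylase, was lower in cDC2 than in cDC1 (1.00 ± 0.466 against 6.13 ± 4.43 CPM, log2 −2.60, edgeR adjusted p = 0.00822), with cDC1 replicate 3 at 11.2. Fabp5, a fatty acid binding protein, was highest in cDC2, at 160, 106 and 112 CPM against 15.1 ± 4.44 in cDC1 and 7.85 ± 2.25 in pDC (log2 3.06 against cDC1, SE 0.29, edgeR adjusted p = 5.68e-05). Hacd4, a fatty acid dehydratase, was also highest there, at 10.7 ± 3.56 CPM against 1.51 ± 0.484 and 1.43 ± 0.753. Mgll, monoglyceride lipase, was highest in cDC1, at 6.16 ± 1.71 CPM against 0.843 ± 0.244 in cDC2 and 0.765 ± 0.688 in pDC.

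Triglyceride and droplet genes (20 tested) had 5 higher and 7 lower in pDC than in cDC1 and 7 higher and 5 lower than in cDC2. Fatty acid oxidation genes (19 tested) had 6 higher and 4 lower, and 4 higher and 3 lower. Other isoprenoid and sterol genes (11 tested) had 2 higher and 2 lower in each. Other fatty acid synthesis and activation genes (15 tested) had 5 higher and 4 lower, and 6 higher and 3 lower, and the 5 oxysterol genes had 2 higher and 2 lower, and 3 higher and 0 lower. Many of these counts lie near the shares of all genes given above, and chance was not assessed for the lists.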
